A study of Mus musculus with 2 samples.

Results

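Apela, a secreted peptide ligand, Apln, the second ligand of the same receptor, and Aplnr, that G protein-coupled receptor, were followed on the arrays of embryonic ureters. They are 3 genes of 29923 measured. They were chosen by the array values themselves: Apela was picked for its large ratio on these arrays, and Apln and Aplnr were added as the other ligand and the shared receptor. Their ratios are therefore given as a description with no test. Each gene had 1 probe on 4 spots, so that 12 of 157716 spots that were not controls belonged to the family.

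Each of 2 two-colour arrays carried RNA of a Pparg-cKO pool and of a control pool, taken from whole E18.5 ureters of NMRI embryos. The array of replicate 1 was female and that of replicate 2 male, and where values come in pairs the female one stands first. Pparg-cKO embryos were labelled Pax2-cre/+; Pparg(fl/fl), and controls Pparg(fl/?), where the second allele was not stated. By the methods of the study, controls were littermates without cre, NMRI was an outbred background, and the floxed allele loses exons 2 and 3. The Pax2-cre line recombines in the nephric duct, the ureteric epithelium and the collecting duct system of the kidney. By the same methods each pool held ureters of several sex-sorted embryos. The p-values rest only on spreads between these 2 arrays, that of the gene and, through the moderation, those of all genes tested.

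Signs need a decision that the labels do not settle. By the dye labels, control RNA was read in red on the female array and Pparg-cKO RNA in red on the male array. The samples of the deposited table are titled Pparg-cKO vs control, yet both of its columns opposed the dye labels: across 39429 probes they correlated with red over green at 0.905 (female array) and -0.932 (male array). Higher and lower below follow the deposited table, which is the likely direction because the sample titles name it and because the text and the tissue sections of the study, uroplakins included, describe changes in that direction. Should the dye labels hold instead, higher and lower are exchanged for every gene while the sizes stay. Array, sex and dye orientation changed together and cannot be told apart.

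The targeted gene was read by 1 probe. This probe for Pparg, at position 1562 of the transcript (mm9 chromosome 6, 115440213 to 115440272), gave signals of 12357 (Pparg-cKO by the deposited table) and 6113 (control) in females, and of 12930 and 6688 in males. The log2 ratios were 0.98 and 0.96, so that the targeted transcript was higher in Pparg-cKO by the deposited table and lower in it by the dye labels. The study describes a Pparg transcript without the deleted exons that mutants still make, and more of it at this stage, so that a higher signal does not by itself oppose the direction of the deposited table. Whether the probe lies outside the deleted exons was not analysed here. In the tissue sections of the study, a probe outside them gave more signal in mutants at this stage, which is the direction of the deposited table. Pparg-cKO and control below mean the channels that are so by the deposited table, which the dye labels name the other way round.

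Apelin and Apela are made as prepropeptides, are secreted, and bind the same receptor although their sequences differ. Aplnr, also named APJ, couples to inhibitory G proteins and beta-arrestins and is known from endothelial cells, where apelin and its receptor act in vessel growth and vascular tone. Apela, also named ELABELA or Toddler, is known as an early embryonic hormone that guides mesendodermal cells at gastrulation, supports self-renewal of human embryonic stem cells, and in adults is found in the kidney. In the ureter, the epithelium is the tissue in which Pax2-cre acts, while vessels run in the surrounding mesenchyme.

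The probes decide which transcript was read, and the first 30 of their 60 bases are shown in the sense of the gene to make that visible. All 3 accessions matched a RefSeq transcript, and the array held no second probe with these names.
Apela, transcript position 683, mm9 chr8:67552578-67552607, minus strand: ttacacatagtggtgggtttcacaaaggca
Apln, transcript position 2818, mm9 chrX:45378623-45378652, minus strand: gtcctttggcatctgttcgaatgtcctcat
Aplnr, transcript position 3121, mm9 chr2:84979638-84979667, plus strand: gggcctttgtgagctggacatgggtgtgca
The GC content of the whole probe was 41.7% for Apela, 40% for Apln and 55% for Aplnr, beside a median of 41.7% over all probes. The exon and the untranslated region of each probe were not analysed here.

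Apela and Apln, the ligand with the large ratio and the ligand without it, also differ in the bases before their start. Below are the 250 bases upstream of each annotated start, from RefSeq on GRCm38.p6, with CG dinucleotides in capitals.
Apela, chr8:65037337-65037586, minus strand: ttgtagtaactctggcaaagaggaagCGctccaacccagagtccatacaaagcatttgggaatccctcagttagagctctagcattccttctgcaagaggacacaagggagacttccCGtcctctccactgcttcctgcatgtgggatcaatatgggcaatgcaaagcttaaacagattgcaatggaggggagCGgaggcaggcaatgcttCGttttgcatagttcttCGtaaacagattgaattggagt
Apln, chrX:48034854-48035103, minus strand: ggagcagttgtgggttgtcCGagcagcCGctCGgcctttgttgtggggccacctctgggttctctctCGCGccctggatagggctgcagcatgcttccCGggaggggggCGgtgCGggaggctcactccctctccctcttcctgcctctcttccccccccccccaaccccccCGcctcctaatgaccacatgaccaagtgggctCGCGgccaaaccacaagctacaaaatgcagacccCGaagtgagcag
The Apela sequence held 5 CG dinucleotides at a GC content of 48.0%, and the Apln sequence 12 at 65.2%. The medians over the 32851 promoters of the table were 6 CG dinucleotides and 52.4% GC. The core motif of nuclear receptors such as PPARG, AGGTCA, was searched on both strands and had 0 matches in either sequence, against 14.0% of all promoters with at least 1. The full direct repeat AGGTCANAGGTCA, which contains that core, also had 0 matches in both and stood in 0.0335% of all promoters. The core of the hypoxia element, ACGTG, had 0 matches in both and was held by 16.6% of all promoters. No match says only that these letters are not in this window.

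Apela was much brighter in the Pparg-cKO than in the control pool on both arrays. On the female array its 4 spots read between 1358 and 1375 in Pparg-cKO ureters (mean 1365 ± 7.10, SD over 4 spots) and between 80.0 and 87.8 in control ureters (mean 84.4 ± 3.85). On the male array they read between 1112 and 1140 (mean 1126 ± 13.7) against 89.5 to 97.2 (mean 94.4 ± 3.40). The spots of the pools were far from overlapping on each array, and all 4 spots were well above background in all pools, so that Apela was measured above background in controls of both sexes too. The spread between spots is technical.

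**Figure D1:**
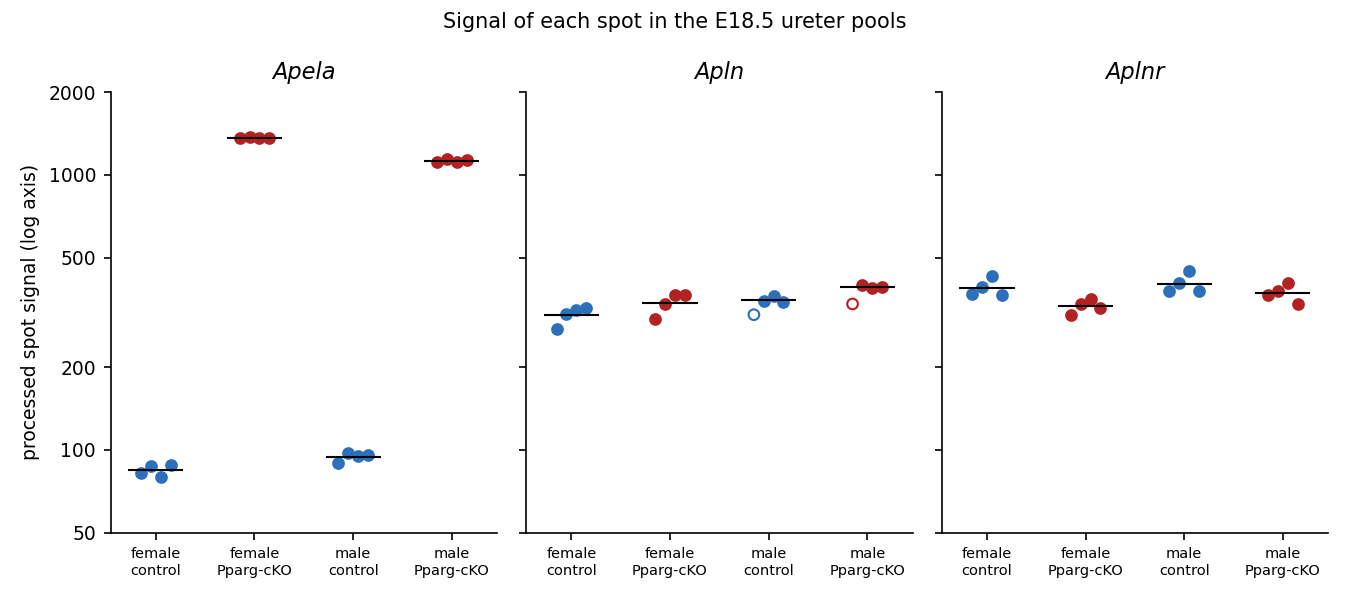
Processed signal of every spot (log axis, arbitrary units) for Apela, Apln and Aplnr in the control (blue) and Pparg-cKO (red) pools of the female and male arrays, with the mean of the kept spots as a line and the spot with an outlier flag as an open circle. The Apela spots sit at 1112 or above in both Pparg-cKO pools and below 100 in both control pools, while those of Apln and Aplnr lie between 274 and 445 in all 4 pools.

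As a log2 ratio of Pparg-cKO over control after background correction and loess, Apela was 3.79 in females and 3.35 in males. The mean was 3.57 ± 0.31 (SD, n = 2), or 11.9-fold. Single spots gave log2 ratios from 3.71 to 3.91 in females and from 3.29 to 3.45 in males. Taken straight from the processed signals, the ratio was 16.2-fold in females and 11.9-fold in males. These are the values for which the gene was picked. As a place among all genes after background correction and loess, 1 of 22499 genes tested had a larger mean log2 ratio in either direction (Prm1), 0 were larger in females alone and 1 in males alone. From the processed signals, 5 genes had a larger mean log2 ratio, Prm1 and Arhgef38 among them, and 3 genes did so in the deposited table.

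Apln, apelin itself, differed little between the pools. Its 4 spots on the female array averaged 343 ± 31.1 in Pparg-cKO and 309 ± 24.1 in control ureters (SD over 4 spots). On the male array, where 1 spot carried an outlier flag and was dropped, the 3 kept spots averaged 392 ± 4.28 against 352 ± 10.1. The female spots of the pools overlapped, at 300 to 367 against 274 to 327, and the male ones did not, at 388 to 397 against 344 to 363. The log2 ratio was 0.14 in females and 0.17 in males. Its mean of 0.16 ± 0.02 (SD, n = 2) is 1.12-fold. Of all genes tested, 30.1% had a larger mean log2 ratio in either direction, and 1152 genes lay within 0.1 of the Apln pair of ratios.

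Aplnr, the receptor of both ligands, leaned the other way by the same small amount. The female array read 333 ± 19.4 in Pparg-cKO and 389 ± 29.6 in control ureters, and the male array 372 ± 27.1 and 401 ± 31.9 (SD over 4 spots). Spots did not overlap on the female array, at 309 to 355 against 367 to 430, and did on the male array, at 339 to 404 against 377 to 445. The log2 ratio was -0.22 and -0.10, and the mean -0.16 ± 0.08 (SD, n = 2), again 1.12-fold in size. Of all genes tested, 29.8% had a larger mean log2 ratio in either direction, and 928 lay within 0.1 of this pair of ratios. Normalisation matters at this size: with each array centred on its median in place of loess, Apln was 0.07 and 0.45 and Aplnr -0.30 and 0.18 on the female and male arrays, so that Aplnr differed in sign between the arrays.

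**Figure D2:**
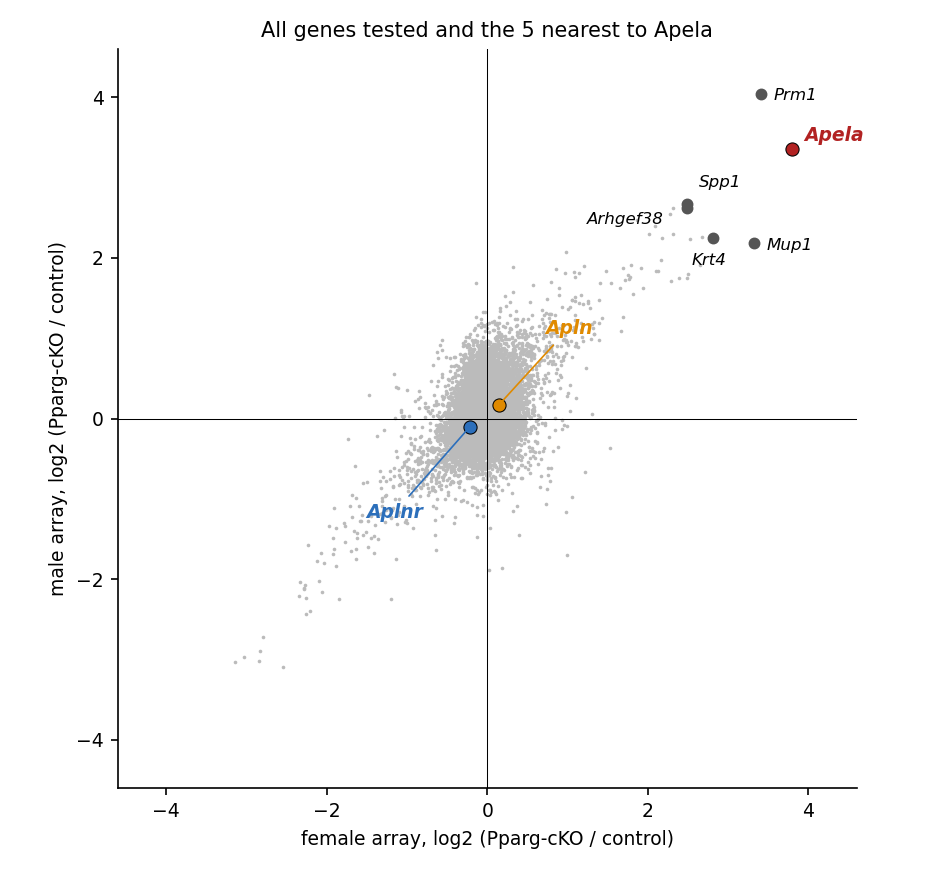
Log2 ratio of Pparg-cKO over control on the female array (x axis) and the male array (y axis) for the 22499 genes tested (grey), with Apela, Apln and Aplnr in colour and the 5 genes nearest to Apela in dark grey. Apela stands at 3.79 and 3.35 at the edge of the plot, whereas Apln and Aplnr lie within the cloud around 0.

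A fold rule was built after the filter of the study, on the ratios after normexp and loess, which are not the authors' values. It asks for a change of at least 1.5-fold on each of the arrays, in the same direction. The intensity threshold of 100 was applied here to the brighter channel of each array, a choice that the methods do not spell out. The rule was passed by 258 of 14015 genes bright enough (1.84%), 111 higher (0.792%) and 147 lower (1.05%). In limma, 169 of 22499 genes passed an adjusted p of 0.05 (0.751%), 86 higher (0.382%) and 83 lower (0.369%). Of the family, 1 of 3 genes passed the fold rule, Apela, which follows from how it was picked, and Apln and Aplnr did not. As a scale for these values, the median size of the mean log2 ratio over all genes tested was 0.09, the median SD between the arrays 0.12, and 10% of genes exceeded 0.31.

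The pattern most like that of Apela was sought by the distance between pairs of log2 ratios over the 2 arrays, among genes with a name. Prm1, a protamine that packs sperm DNA, was nearest at a distance of 0.785 on the log2 scale, with log2 ratios of 3.41 and 4.04. Mup1, a major urinary protein, followed with 3.32 and 2.18. Then came Spp1, the secreted matrix protein osteopontin, with 2.48 and 2.67, Krt4, a keratin of stratified epithelia, with 2.81 and 2.25, and Arhgef38, a guanine nucleotide exchange factor, with 2.48 and 2.63.

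Signals behind these ratios were read on each probe. Spp1 gave 894 and 1329 in the Pparg-cKO pools against 132 and 183 in the controls, and Krt4 gave 623 and 605 against 73.3 and 116. The control signals were 17.7 and 20.4 for Prm1 and 8.0 and 9.22 for Arhgef38. Without normexp and loess, from the processed signals, Prm1 had a mean log2 ratio of 4.62, Arhgef38 of 4.05, Mup1 of 3.67 and Apela of 3.80. The mean log2 ratio of Apela lay between 3.57 and 3.80 under the processings that kept both arrays.

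The genes beside Apela on the chromosome were read next, chosen by position alone. Trim61, whose probe lies 15.5 kb away, had log2 ratios of 0.36 and 0.61 (mean 0.49; limma adjusted p = 0.284). Trim60, at 28.4 kb, had 0.04 and 0.08, and Trim75, at 46.9 kb and too dim to be tested, had 0.05 and 0.10. On the other side BC030870, at 57.6 kb, had 0.15 and -0.27. Trim61 was dim, with processed signals of 13.4 against 5.38 and 17.95 against 6.404, so that it could not pass the intensity threshold of the fold rule and the offset of 50 drew its ratio towards 0. From the processed signals its log2 ratios were 1.32 and 1.49, in the direction of Apela (mean 1.40; limma adjusted p = 0.024), and with no offset the mean was 0.89 (limma adjusted p = 0.0119). The deposited table gave it a mean of 1.31 (limma adjusted p = 0.533). Trim60 and Trim75 were dimmer still, with no signal above 6 in any pool, and BC030870 was bright and passed neither the fold rule nor limma.

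**Figure D3:**
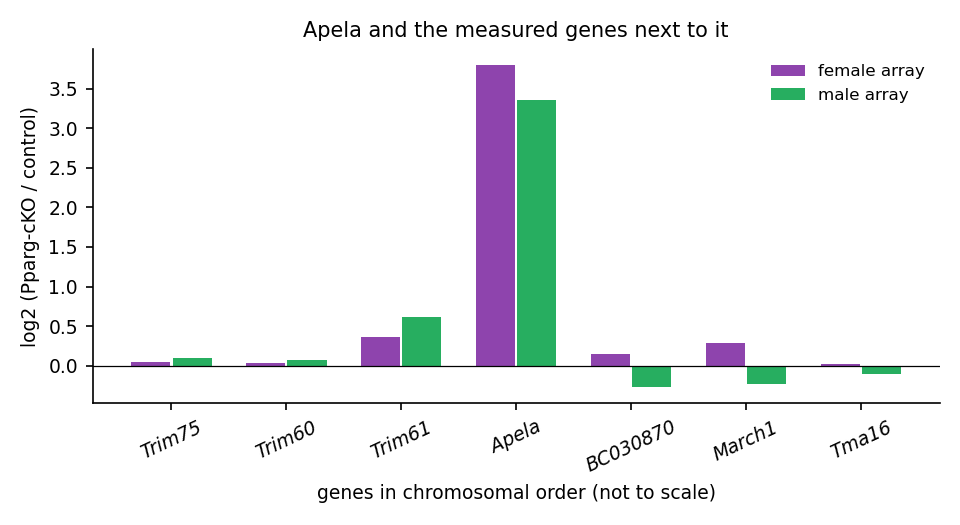
Log2 ratio of Pparg-cKO over control on the female (purple) and male (green) arrays for Apela and the 3 measured genes on either side of it, in chromosomal order and not to scale. Apela stands at 3.79 and 3.35, and the highest neighbour, Trim61, at 0.36 and 0.61 with the offset of 50 (1.32 and 1.49 from its dim processed signals).

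Genes with roles around the family were taken as lists that were written with earlier results of these data known. Among partners of apelin receptor signalling, 14 of 14 genes were tested and 0 passed limma or the fold rule, with a median log2 ratio of 0.19 beside 0.01 over all genes tested. The list median was 0.03 in females and 0.31 in males, beside -0.01 and 0.01 over all genes tested. At an unadjusted p under 0.05 in limma there were 3 of them (Klf4, Klf2 and Gja4), or 21.4%, beside 1914 genes or 8.51% of all genes tested. Aplnr passes its signal through Gnai1, Gnai2 and Gnai3, which encode inhibitory G protein subunits, and through Arrb1 and Arrb2, the beta-arrestins. Their mean log2 ratios were 0.11, 0.27, 0.01, 0.19 and 0.18. By array, Gnai1 had 0.03 and 0.18, Gnai2 -0.10 and 0.63, and Gnai3 -0.02 and 0.03. Arrb1 had -0.05 and 0.44, and Arrb2 0.10 and 0.26. Klf4 and Klf2, flow-responsive transcription factors of endothelium, had 0.45 (limma adjusted p = 0.34) and 0.43 (limma adjusted p = 0.565), and Gja4, a gap junction protein of arterial endothelium, had 0.40 (limma adjusted p = 0.347). Of the 14, 7 were above 0 on both arrays and 0 below 0 on both, where all genes tested had 26.6% above and 26.2% below. These shares of all genes tested, and the 8.51% at an unadjusted p, are also the scale for the lists that follow.

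The enzymes that cut the peptides gave no call either. Of 10 genes measured for processing and breakdown, 9 were tested, 0 passed limma, the fold rule or an unadjusted limma p of 0.05, and the median log2 ratio was 0.02. Furin, a convertase that can cleave the Apela precursor, read 436 against 457 in females and 892 against 400 in males, with log2 ratios of -0.08 and 1.14 (limma adjusted p = 0.724). Mme, or neprilysin, a peptidase that breaks down apelin, had -0.10 and 0.32. Of the 9 genes tested, 2 were above 0 on both arrays and 2 below 0 on both.

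Other peptide systems that act on vessels were near the median of the array. Of 28 genes of vasoactive peptides and receptors, 26 were tested, 0 passed limma or the fold rule (3 at an unadjusted p under 0.05), and the median log2 ratio was 0.00. The member with the largest mean change was Kng1, kininogen, at -0.18 and -0.85 (limma adjusted p = 0.534). Calcrl, the receptor subunit that adrenomedullin uses, read 262 against 389 and 334 against 435, a log2 ratio of -0.61 and -0.26 (limma adjusted p = 0.426). Its ligand Adm, adrenomedullin, had -0.06 and 0.04. Of 14 hypoxia response genes, a group named because apelin is a known hypoxia target, 0 passed limma or the fold rule (3 at an unadjusted p under 0.05). Their median was -0.03, and Egln3, a prolyl hydroxylase, had the largest size at -0.34 and -0.37 (limma adjusted p = 0.412).

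Aplnr and apelin are known from endothelium, and markers of it were measured beside them. All 15 endothelial genes were tested and 0 passed limma or the fold rule (1 at an unadjusted p under 0.05), with a median log2 ratio of 0.02 in females and 0.43 in males. Of the 15, 8 were above 0 on both arrays and 1 below 0 on both, beside 7 and 0 of the 14 signalling partners. Their summed signal was 13208 in Pparg-cKO and 13172 in control ureters of females, and 15712 and 13485 in those of males. Pecam1 and Cdh5, which define endothelium, had mean log2 ratios of 0.13 and 0.35, and Vwf the largest at 0.09 and 1.01 (limma adjusted p = 0.623). Of 7 genes of endothelial tip cells, where apelin is known to be made, 0 passed limma or the fold rule (1 at an unadjusted p under 0.05), and Unc5b, a netrin receptor, stood highest at 0.18 and 1.03 (limma adjusted p = 0.539). Of these 7, 4 were above 0 on both arrays and 2 below. In whole ureters fewer cells of a type and less RNA per cell cannot be told apart.

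Apela is known from early endoderm and stem cells, and 12 genes of that setting were measured. Of 8 tested, 1 rose in limma and in the fold rule, Cfc1, the Cryptic co-receptor of Nodal. It read 190 against 69.4 in females and 211 against 87.6 in males, with log2 ratios of 1.17 and 1.11 and a mean of 1.14 ± 0.04 (SD, n = 2), or 2.20-fold (limma adjusted p = 0.0244). Nodal itself had 0.10 and -0.02, and Tdgf1, the related co-receptor Cripto, 0.11 and -0.30. Eomes, Foxa2, Gata4 and Pou5f1, which mark endoderm or pluripotent cells, were too dim to be tested, with no signal above 4 in any pool. The median log2 ratio of the 8 genes was 0.05.

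Since Apela is found in the adult kidney and a dissected ureter can carry kidney tissue, kidney markers were set beside it. Of 9 collecting duct genes tested of 12, Fxyd4, a regulator of the sodium pump, rose in limma and in the fold rule. It read 536 against 77.4 and 596 against 109, a log2 ratio of 2.53 and 2.24 (mean 2.38 ± 0.21, SD, n = 2; 5.21-fold; limma adjusted p = 0.0062). The median of the 9 was 0.17, with 6 above 0 on both arrays and 2 below, Aqp2 among the latter. At an unadjusted p under 0.05 in limma there were 2, Fxyd4 and Scnn1b, and Scnn1b had log2 ratios of 0.23 and 0.85. Aqp2, the water channel that defines principal cells, had -0.12 and -0.17, at signals under 30 on the female array. The 12 collecting duct genes together summed to 945 against 420 in females and 1071 against 515 in males, of which Fxyd4 gave 536 and 596 in the Pparg-cKO pools. Of 8 kidney tubule genes tested of 12, 0 passed limma (3 at an unadjusted p under 0.05), 0 were bright enough for the fold rule, the median was -0.22 (-0.53 from the processed signals), and 6 lay below 0 on both arrays. The summed signal of all 12 was 251 against 311 and 196 against 327, and Umod, which defines the thick limb, was too dim to be tested, with no signal above 2 in any pool. The largest change among the 8 tested was that of Slc22a6, a transporter of the proximal tubule, at -0.49 and -0.92 (limma adjusted p = 0.186). Its signals were 9.74 against 21.8 and 4.805 against 23.97, which gave -1.16 and -2.32 from the processed signals (limma adjusted p = 0.0882), and with no offset limma called it lower (mean -1.19; limma adjusted p = 0.0043). The part of kidney cells in the Apela ratio was not tested beyond these values.

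**Figure D4:**
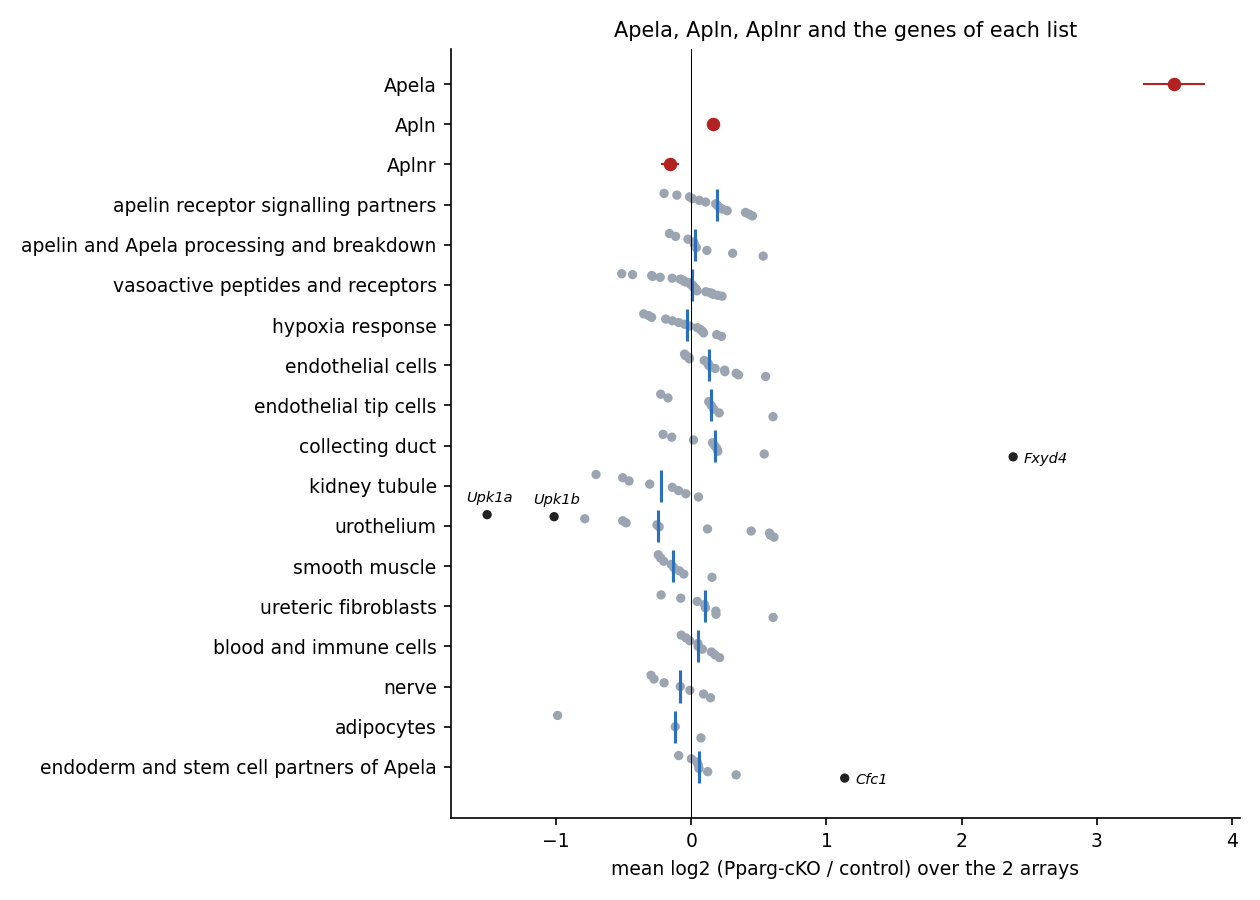
Mean log2 ratio over the 2 arrays (x axis) of Apela, Apln and Aplnr (red, lines joining the values of the arrays) and of the tested genes of each list (points, black where a gene passed limma or the fold rule), with the list's median as a blue line. Fxyd4 at 2.38, Cfc1 at 1.14, Upk1a at -1.51 and Upk1b at -1.02 are the named points beyond the rest of their lists, and none reaches Apela at 3.57.

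The urothelium, in which Pax2-cre acts, was present by its markers in all pools. Of 12 urothelial genes tested, 0 passed limma (7 at an unadjusted p under 0.05) and 2 passed the fold rule, both lower: Upk1a, a uroplakin of the apical plaques, at -1.91 and -1.12 (limma adjusted p = 0.0685), and its partner Upk1b at -1.30 and -0.73 (limma adjusted p = 0.109). Of the 12, 6 lay below 0 on both arrays and 3 above, and the median was -0.42 in females and 0.09 in males. The 3 above were Epcam (0.41 and 0.48), Foxa1 (0.17 and 1.06) and Cdh1 (0.07 and 1.10). Epcam and Foxa1 belong to the 7 at an unadjusted p under 0.05. The signal summed over the 12 genes was 78370 against 121799 in females and 97662 against 105713 in males. Of 8 smooth muscle genes, 8 fibroblast genes, 9 blood and immune genes, 7 nerve genes and 3 adipocyte genes tested, 0 passed limma or the fold rule (3 at an unadjusted p under 0.05), with medians of -0.14, 0.10, 0.05, -0.08 and -0.12. The largest mean change in each was -0.25 for Tagln, 0.61 for Col1a1, 0.21 for Cd68, -0.30 for Tubb3 and -0.99 for Adipoq, of which Adipoq had -1.73 and -0.25 (limma adjusted p = 0.532), or -2.81 and -0.67 from its processed signals. Over all 15 lists, which hold 172 measured genes, 4 of 112 bright enough passed the fold rule (3.57%, beside 1.84% of all genes). Of 155 tested, 2 passed limma and 27 had an unadjusted p under 0.05 (17.4%, beside 8.51% of all genes tested), 7 of them urothelial. Run on the authors' table, limma called 0 genes, so that the calls of Cfc1 and Fxyd4 (limma adjusted p = 0.533 for each) are lost there while both still passed the fold rule. The part of these cell types in the values of Apela, Apln and Aplnr was not tested.

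**Figure D5:**
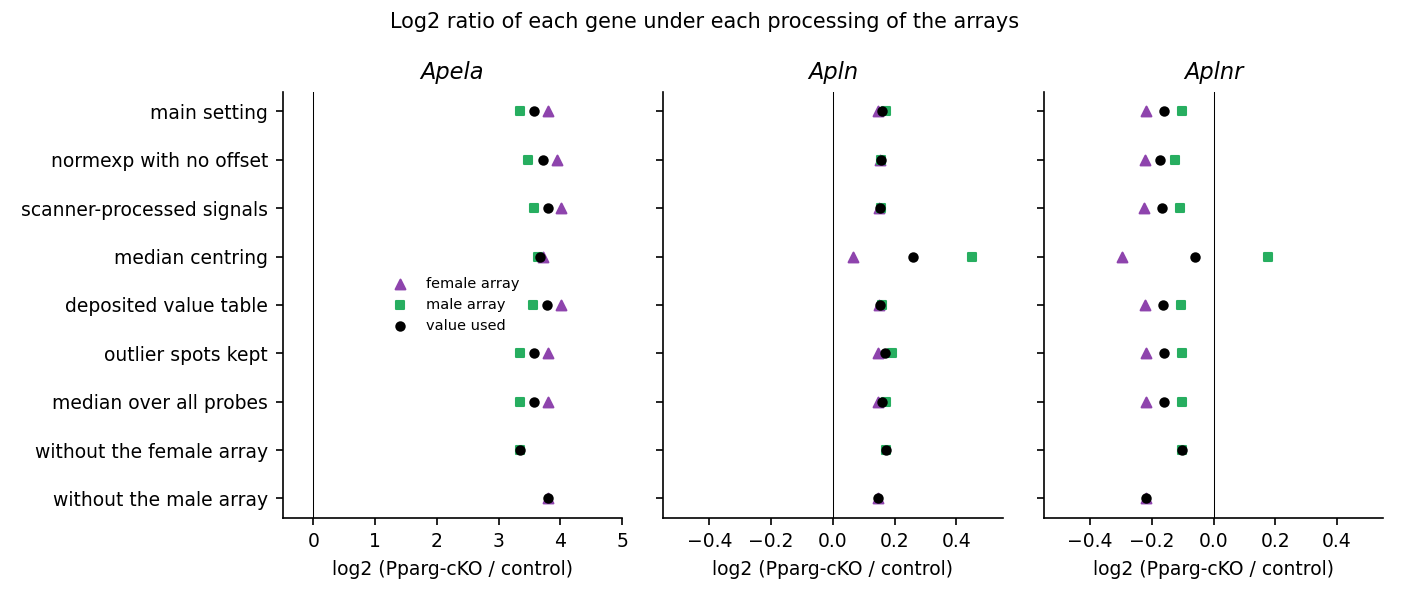
Log2 ratio of Pparg-cKO over control for Apela, Apln and Aplnr under the main setting and 8 other treatments of the same arrays, with the female array as a triangle, the male array as a square and the value used as a dot (the x axis differs between panels). Apela stays between 3.35 and 3.80, Apln between 0.14 and 0.26 and Aplnr between -0.22 and -0.06, and median centring is the setting that spreads the arrays of Apln and Aplnr.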

How the data were processed

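Members and gene lists were chosen with earlier results of these data known. Per the file headers, the values read from the scanner are linear intensity per spot and log10 of red over green; Agilent Feature Extraction 10.7.3.1 is named in the submitters' processing notes. The authors' deposited table held a signed fold change per probe, used as a score, with values of exactly 1 in 28.3% and 28.4% of cells.

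Each array held 174979 spots. Outlier flags removed 2.87% of female and 3.24% of male spots, and 0 were saturated. The mean signal and median background were corrected by normexp (offset 50), and loess was applied to each array (limma 3.58.1, R 4.3.3). Spots of a probe were averaged, the brightest probe stood for a gene, and ratios were turned to the deposited table's direction. The limma test used the mean of 2 log2 ratios with empirical Bayes moderation (1 residual and 4.00 prior degrees of freedom), two-sided, Benjamini-Hochberg adjusted over 22499 genes whose probe exceeded background, by the scanner's flag, in 1 or more channels of each array; it was tested on simulated data. Signals quoted are processed signals. The number of arrays limits the precision. Both arrays lay on the same slide.

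Named genes were all 3 members, list genes called or with the largest mean change (up to 3 a list), ligands and receptors beside a member, and the 5 genes nearest to Apela. Markers that define a cell type, the neighbours of Apela and some list genes given as context fall outside that rule. Alternatives were other background corrections, signals, normalisations, filters, probe rules and directions, and each array left out. Sequences were read from the scanner files and RefSeq (GRCm38.p6). Aplnr had no promoter printed.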

Additional observations from a re-analysis of the deposited data

Results flagged for a closer look

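Among the 3 genes and the list genes tested, 158 in all, 3 had log2 ratios of opposite sign on the arrays with at least 1.2-fold on each. The share of all genes tested that meet this rule was not computed, so whether such a pattern is unusual on these arrays cannot be said. Krt5, a basal keratin, was -0.86 in females and 0.35 in males, a difference of 1.2. Egfl7, a secreted endothelial factor, was -0.42 and 0.65, a difference of 1.07. Krt8, a simple keratin, was -0.28 and 0.52, a difference of 0.80. Each sex had 1 array, so that these differences were not tested, and sex and dye orientation cannot be told apart. Apela, Apln and Aplnr had the same sign on both arrays, with male minus female log2 ratios of -0.44, 0.03 and 0.12.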

How the results depend on the processing

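The Apela log2 ratio of 3.57 lay between 3.35 and 3.80 under 8 alternatives: normexp with no offset, scanner-processed signals, median centring, the deposited table, outlier spots kept, the median over all probes, and each array left out (3.35 and 3.79). With the sign by the dye labels it is -3.57. Apln moved from 0.16 to 0.26 with median centring and is -0.16 by the dye labels (0.14 to 0.17 with an array left out). Aplnr moved from -0.16 to -0.059 with median centring and is 0.16 by the dye labels (-0.22 to -0.10 with an array left out). The cause was not tested.

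Genes past the fold rule numbered 258, and 112 at 2-fold, which asks more by construction. A rule on a single array gave 1253 without the female array (965 higher, 288 lower) and 444 without the male array (176 higher, 268 lower). It asks less by construction, and the cause of the gap between the arrays was not tested. Median centring split the calls into 115 higher and 102 lower, beside 111 and 147. Limma called 169 genes, 571 with no offset, 94 with no filter on dim probes and 0 with the deposited table, where 2101 genes had an unadjusted p under 0.05 and the fold rule called 291. Cfc1, Fxyd4, Prm1, Mup1, Spp1, Krt4 and Arhgef38 kept their sign under 6 alternatives and were called in 5 of them, the deposited table excepted. Limma also called Upk1a in 3, Upk1b and Trim61 in 2, and Slc22a6, Adipoq (adjusted p = 0.0451) and Krt18 in 1 of the 6, the last 3 with no offset. The fold rule added Krt18 with median centring and Mme with the median over all probes. The mean log2 ratio of Trim61 ranged from 0.47 to 1.40, that of Trim60 from 0 to 0.52, that of Slc22a6 from -1.74 to -0.71 and that of Adipoq from -1.75 to -0.97. These runs on single genes and list medians were chosen after seeing the data. The kidney tubule median moved from -0.22 to -0.34 with no offset, -0.53 with scanner-processed signals and -0.50 with the deposited table, the nerve median from -0.08 to -0.15 and -0.17 with the latter pair, the collecting duct median from 0.17 to 0.26 with the deposited table, the fibroblast median from 0.10 to 0.03 with median centring, and that of the processing list ranged from 0.00 to 0.06. The mean log2 ratio of Arhgef38 ranged from 1.72 to 4.09 and that of Mup1 from 2.75 to 3.69. The median of the hypoxia list ranged from -0.07 to 0.02, and that of the vasoactive list from -0.01 to 0.02.

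Limma without an array was not run, since 1 array leaves no residual degrees of freedom. No paired analysis was possible because each array already sets the pools of 1 replicate against each other.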
